A study of Mus musculus with 6 samples.

Results

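The untreated cells of a mouse RNA-seq study were described from their 3 control libraries, out of 6 libraries in the series. The libraries were chosen by label: they are the control samples, numbered 1 to 3 in their titles. The label names the cells MC3T3-E1, preosteoblasts that were first grown from the skull of a mouse, with wild-type genotype. They were kept in α-MEM with 10% fetal bovine serum and antibiotics, received no treatment, and carry the 24 h time label. The other 3 libraries came from cells given 200 µM sulfasalazine for 24 h, and their levels are not compared here. The labels do not name a vehicle, nor do they tell if the 3 replicates were grown apart from each other, so the spread between them may be technical. With a single group of samples there was no test to make, and all values below are descriptions.

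MC3T3-E1 cells are used as a model of bone formation: they are known to lay down type I collagen and, once induced, to mineralise. In osteoblasts the transcription factor Runx2 acts first and Sp7 (osterix) acts downstream of it, after which the cells make type I collagen, alkaline phosphatase and osteocalcin. Mesenchymal cells of this kind build their cytoskeleton from vimentin, whereas simple epithelia build theirs from the keratin pair Krt8 and Krt18.

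Levels are given in FPKM, fragments scaled to the length of the gene and to the mapped fragments of the library, so that levels can be compared between genes. A gene counted as expressed when its mean over the 3 libraries was at least 1 FPKM. Whole reads recovered from the FPKM values summed to 19613109, 20828706 and 15980944 in replicates 1, 2 and 3. The table held 14003 genes, of which 9984 (71.3%) were expressed, 1395 had a mean of 100 FPKM or more, 2478 lay below 0.1 FPKM and 556 were listed at 0 in all 3 libraries. Replicate 3 stood apart from the other libraries, as given with the spread at the end. Without it 9927 genes were expressed, and the counts of expressed osteoblast markers (5), keratins (6), intestinal epithelial markers (4) and fibroblast genes (5) given below were the same. A listed gene that is not in the table was not analysed here, and its level cannot be judged. RNA was taken in bulk, so a low level cannot tell a few cells with much of a transcript from many cells with little.

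The most abundant transcripts were mt-Co1, Eef2, Hmga1, Tpt1 and Fosl1. The 25 highest genes held 9.79%, 10.9% and 10.8% of the summed FPKM in replicates 1, 2 and 3. Classed by gene symbol, they comprised 6 ribosomal protein genes, 4 mitochondrially encoded genes and 15 others. Fau, which also encodes a ribosomal protein, was counted among the others. The highest of all was mt-Co1, a subunit of cytochrome c oxidase, at 4851 ± 701 FPKM (mean ± SD, n = 3). Of the 50-base words in its transcripts, 51.1% also occur in transcripts of other genes. Next came Eef2, the elongation factor that moves the ribosome along the mRNA, at 4525 ± 494 FPKM.

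Rank 3 was held by Hmga1, which encodes an architectural chromatin protein that is typically high in embryonic and transformed cells. Hmga1 stood at 3577, 3666 and 3793 FPKM in replicates 1, 2 and 3, a coefficient of variation (CV, the SD as a share of the mean) of 2.95%. Of the 50-base words in its transcripts, 55.0% also occur in transcripts of other genes, so part of these reads may belong to copies. Rank 5 was held by Fosl1, which encodes Fra-1, a Fos-family subunit of the transcription factor AP-1. Its levels were 3547, 3485 and 3189 FPKM, a CV of 5.61%. In the annotation 57.2% of the exonic bases of Fosl1 also lie in other genes, and the use of strand in the counting was not stated.

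Other genes among the 25 highest were Tpt1, a translationally controlled growth protein, and the ferritin chains Fth1 and Ftl1, which store iron. Tpt1 had 3488 ± 108 FPKM, Fth1 2991 ± 628 FPKM and Ftl1 2783 ± 485 FPKM. Of the 50-base words of Ftl1, 50.9% occur in other genes. Sqstm1, the autophagy receptor p62, had 2637, 2934 and 2295 FPKM. Tnfrsf12a, the receptor for the cytokine TWEAK, had 2471, 2366 and 2239 FPKM and was the only cell-surface receptor among these 25 genes. The metallothioneins Mt1 and Mt2, which bind zinc and copper, were uneven: Mt1 had 1076, 977 and 3658 FPKM, with replicate 3 well above the others. Lgals1, the secreted lectin galectin-1, also stood highest in replicate 3, at 2406, 2857 and 4505 FPKM.

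Among the genes listed as transcription factors, the highest were the architectural chromatin protein Hmga1, then Fosl1, Atf4 and Ybx1. The lists held 298 transcription factor genes of the table, of which 209 were expressed and 37 reached 100 FPKM. Of all genes in the table, 71.3% were expressed and 9.96% reached 100 FPKM. Behind Hmga1 and Fosl1 came Atf4, the effector of the integrated stress response, at 1433, 1462 and 1288 FPKM. Ybx1, a cold-shock domain protein that binds DNA and RNA, followed at 1030 ± 80.7 FPKM. Jund, a Jun-family partner in AP-1, had 541, 714 and 1012 FPKM, and Myc, which drives cell growth, had 624, 686 and 663 FPKM. In the annotation 52.6% of the exonic bases of Jund also lie in other genes. Myc varied little (CV 4.80%), while Cebpb, a factor of acute-phase and adipocyte genes, had 360, 377 and 806 FPKM and was highest in replicate 3.

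Of the 10 AP-1 subunits in the table, 8 were expressed, against 71.3% of all genes, and their levels covered a wide range. Fosl1 stood above every Jun partner, the next being Jund, Junb at 463 ± 47.6 FPKM and Jun at 182 ± 12.1 FPKM. Fos itself, the subunit best known from the early response to serum, had only 12.6, 11.5 and 7.16 FPKM, and Fosb had 6.55, 5.41 and 3.55 FPKM. The NF-κB subunits Rela (476, 513 and 459 FPKM) and Nfkb2 (262, 245 and 210 FPKM) were among the 20 highest factors. So were Rarg, the retinoic acid receptor gamma, at 481 ± 87.7 FPKM and Nfe2l2, the oxidative stress factor NRF2, at 326 ± 46.2 FPKM.

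Of the 30 osteoblast markers, 19 were in the table and 5 of those were expressed, against 71.3% of all genes in the table. The lists below can be set against the same share. Spp1 (chr5:104435118-104441050 on GRCm38, as are the positions below), which encodes the bone matrix protein osteopontin, was by far the highest at 1513, 2015 and 2077 FPKM, rank 28 of all genes. Osteopontin is also made by many epithelial and immune cells. Col5a1, a fibril-regulating collagen chain, had 123, 122 and 213 FPKM. Sparc (osteonectin), a collagen-binding glycoprotein of bone, had only 10.0, 13.6 and 43.6 FPKM, and replicate 3 was more than 3 times as high as either other library. The remaining members above 1 FPKM were Bglap2 (1.43 ± 1.10 FPKM), an osteocalcin gene, and Phospho1 (1.92 ± 0.811 FPKM), a phosphatase of mineralisation. Both are uncertain, since 88.2% and 85.4% of their 50-base words occur in other genes.

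The defining products of the osteoblast were at or near 0. Col1a1 (chr11:94936224-94953042), the main chain of type I collagen, had 2, 5 and 19 recovered reads, or 0.0561, 0.132 and 0.651 FPKM. Sp7 had no read in any of the 3 libraries. At 3 reads, the limit that a count of 0 allows, this still permits up to 0.222, 0.208 and 0.271 FPKM. Bglap, the osteocalcin gene, had 0.378, 0.829 and 0.154 FPKM, and with 56.6% of its 50-base words shared with other genes its level is uncertain too. In all, 14 of the 19 markers in the table lay below 1 FPKM. Among the low ones were Cdh11, the cadherin of mesenchymal and bone cells, at 0.316, 0.222 and 0.0643 FPKM. Col1a2 (the second type I collagen chain) and Alpl (alkaline phosphatase) were not in the table, and 9 other markers of the list were not either.

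The osteoblast transcription factors were present in part. Of 18 listed, 9 were in the table and 6 were expressed. Runx2 (chr17:44495987-44814797) had 24.9, 24.6 and 20.9 FPKM, with 1096, 1155 and 755 reads, so it was detected firmly in every library. Twist1, which is known to restrain Runx2, had 6.44, 7.32 and 9.15 FPKM, and Prrx2, a homeobox factor of limb and face mesenchyme, had 9.89, 8.42 and 19.997 FPKM. Sp7 at 0, Dlx3 at 0.0184 FPKM and Twist2 at 0.0325 FPKM were below. Set against the label, Spp1 and Runx2 were expressed in all 3 libraries. Col1a1, Sp7 and Bglap, which are typical of a collagen-forming osteoblast, were below 1 FPKM in all 3, with the level of Bglap uncertain. The cells received no treatment, and levels after induction of bone formation are not known here. Of the genes described below, 6 of 18 keratins, Cdh1 and Cdx2 were expressed in all 3 libraries, and so was Vim. Most other members of those lists were not: 12 of 18 keratins and 8 of 12 intestinal epithelial markers lay below 1 FPKM. Among epithelial adhesion genes 10 of 22 did. The identity of the line was not tested beyond these transcript levels, and every lineage value refers to cells that carry that label.

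**Figure D1:**
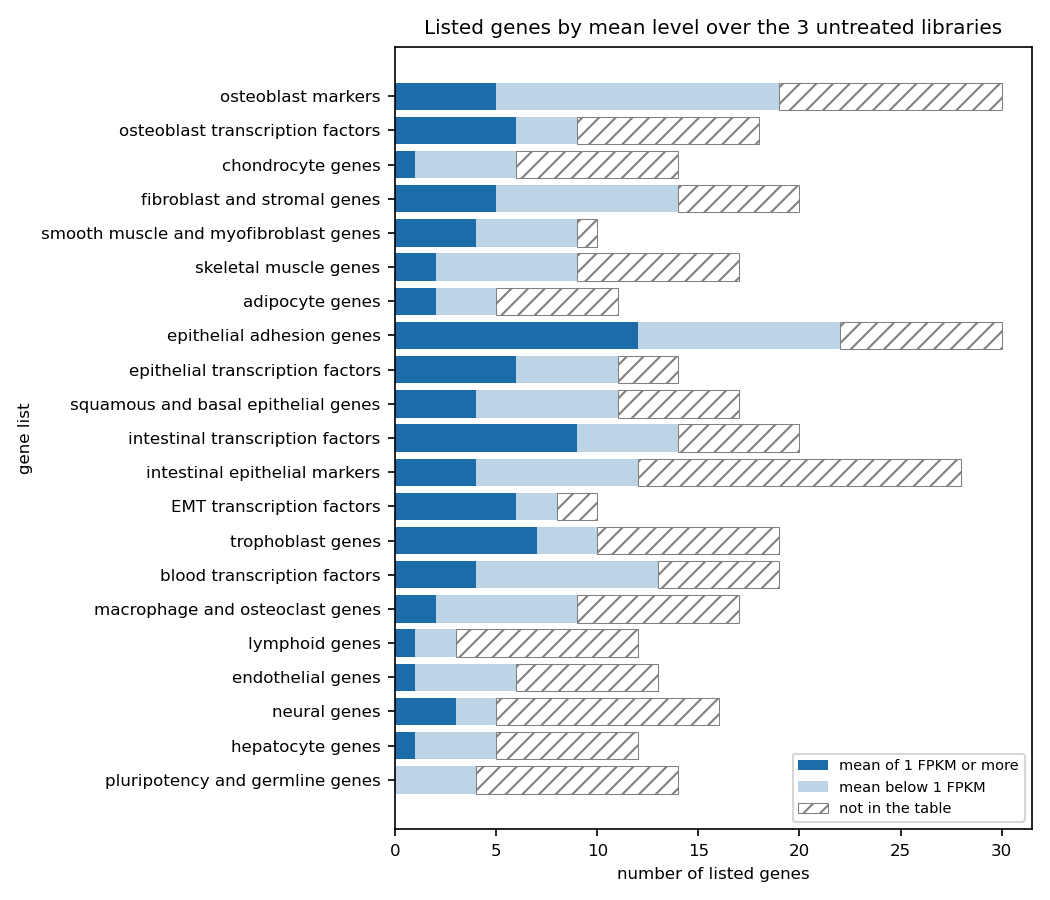
Number of listed genes (horizontal axis) in 21 lineage lists (vertical axis), split into genes with a mean of 1 FPKM or more over the 3 untreated libraries, genes below 1 FPKM and genes not in the table. Of the genes in the table, 5 of 19 osteoblast markers and 4 of 12 intestinal epithelial markers were expressed. Among transcription factors it was 6 of 9 osteoblast and 9 of 14 intestinal ones. Of the epithelial adhesion genes 12 of 22 were expressed. Of all genes in the table, 71.3% were expressed.

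Keratins of simple epithelium were expressed at high levels in all 3 libraries. Of 18 keratin genes in the table, 6 were expressed, and 4 of them exceeded 100 FPKM. Krt18 (chr15:102028180-102032027) had 697, 774 and 654 FPKM, Krt19 had 346, 394 and 308 FPKM, and Krt7, a keratin of glandular and ductal epithelia, had 265, 273 and 242 FPKM. Krt8 (chr15:101996698-102004482), the type II partner of Krt18 and its neighbour on the chromosome, had 260, 276 and 324 FPKM. The 3 libraries of Krt18 did not overlap those of Krt8, Krt19 or Krt7, whereas Krt8 and Krt7 did overlap. Of the 50-base words of Krt8, 26.9% occur in other genes, against 0.720% for Krt18 and 0 for Krt19.

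Keratins of stratified and of mature intestinal epithelium were low or at 0. Krt80, an epithelial keratin made by many cell types, had 96.1, 85.7 and 57.3 FPKM and Krt10 2.23 ± 0.229 FPKM. The basal keratins Krt5 and Krt14 had 0.125 ± 0.0214 and 0.0400 ± 0.0437 FPKM. Krt20, the keratin of mature enterocytes, had no read in any library. The keratins made up 0.253%, 0.264% and 0.224% of the summed FPKM, about as much as the osteoblast markers (0.250%, 0.315% and 0.330%), nearly all of which was Spp1.

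Vimentin was expressed beside the keratins. Vim (chr2:13573927-13582826) had 317, 389 and 484 FPKM. Its mean of 397 FPKM lay between those of Krt18 and Krt19, and its range overlapped that of Krt19. Lmna, the nuclear lamin A gene, had 395, 417 and 502 FPKM. Des, the desmin gene of muscle, and Gfap, that of astrocytes, stood at 0.0657 and 0.0167 FPKM.

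Of the genes above, Krt18 and Vim mark opposite lineages, Spp1 was the highest bone marker and Hmga1 the highest gene listed as a factor. The stretches of 250 bases that end at the RefSeq start of these 4 genes are therefore printed. They come from RefSeq on GRCm38.p6, are written 5′ to 3′ on the gene's strand, and show matches to TATAAA (the TATA box) and GGGCGG (the GC box, on either strand) in capitals.
Krt18 (chr15:102027966-102028215, plus strand): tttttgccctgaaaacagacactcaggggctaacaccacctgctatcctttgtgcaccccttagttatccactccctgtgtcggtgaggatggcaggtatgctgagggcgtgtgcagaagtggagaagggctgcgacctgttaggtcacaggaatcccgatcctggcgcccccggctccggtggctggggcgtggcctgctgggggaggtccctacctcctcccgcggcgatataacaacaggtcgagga
Vim (chr2:13574061-13574310, plus strand): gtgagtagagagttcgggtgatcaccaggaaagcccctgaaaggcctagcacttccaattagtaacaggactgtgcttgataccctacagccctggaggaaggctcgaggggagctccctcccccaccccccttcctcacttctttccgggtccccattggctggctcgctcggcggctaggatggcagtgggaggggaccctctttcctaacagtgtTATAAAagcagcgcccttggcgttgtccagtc
Spp1 (chr5:104434861-104435110, plus strand): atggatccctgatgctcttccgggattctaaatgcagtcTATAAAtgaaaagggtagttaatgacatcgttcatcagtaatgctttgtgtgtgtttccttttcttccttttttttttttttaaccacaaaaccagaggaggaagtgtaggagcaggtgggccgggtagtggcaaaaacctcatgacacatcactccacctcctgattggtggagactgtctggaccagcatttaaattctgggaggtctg
Hmga1 (chr17:27556324-27556573, plus strand): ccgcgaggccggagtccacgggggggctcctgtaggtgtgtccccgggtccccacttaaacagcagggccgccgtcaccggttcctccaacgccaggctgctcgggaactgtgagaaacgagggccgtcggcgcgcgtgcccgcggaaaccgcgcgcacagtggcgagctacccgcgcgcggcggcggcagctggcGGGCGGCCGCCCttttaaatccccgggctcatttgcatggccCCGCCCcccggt
The Vim window lies inside the gene's span in the deposited table, since the RefSeq start used here is 384 bases into that span. The windows of Vim and Spp1 each hold 1 match to TATAAA. That of Hmga1 holds 3 matches to GGGCGG, counted on both strands, and is the richest of the 4 in G and C (72.8%, against 43.6% for Spp1). None of the 4 windows, nor those of Krt8, Cdx2 and Runx2, holds TGANTCA, the AP-1 site. A match is only a run of letters and shows no binding.

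Across the 27025 promoters of the RefSeq set, 6.81% hold TGANTCA, 33.0% hold GGGCGG and 12.9% carry TATAAA, all searched on both strands. Of the 14003 genes 10957 had a promoter there. GGGCGG occurred before 63.2% of the expressed genes and 40.9% of those below 1 FPKM. TATAAA occurred before 5.64% and 11.2%, and TGANTCA before 3.84% and 6.89% of the same sets. Among the 500 highest genes, of which 399 had a promoter, the shares were 59.6% for GGGCGG, 7.52% for TATAAA and 7.02% for TGANTCA.

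Junction and adhesion genes of epithelia were expressed in part. Of 22 in the table, 12 were expressed. The highest were the scaffold of tight junctions Tjp1 (115, 107 and 52.5 FPKM), the protease inhibitor Spint2 (67.3, 78.8 and 90.0 FPKM) and the plaque protein Jup (71.8, 57.5 and 63.2 FPKM). Cdh1, the epithelial cadherin, had 5.23, 7.44 and 6.59 FPKM. It stood above Cdh2, the cadherin of neural and mesenchymal cells, which had 0.463, 0.634 and 0.245 FPKM, with no overlap between the 2 genes. Members below 1 FPKM included Perp, a desmosomal membrane protein, the tight junction protein Tjp3 and the claudin Cldn3, while Epcam, Dsp and Cldn4 were not in the table.

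Cadherins as a family were mostly silent. Of 13 in the table, 4 were expressed, led by Cdh13, an anchored cadherin without a cytoplasmic part, at 18.7, 22.2 and 31.6 FPKM. Cdh17, the liver-intestine cadherin, had 5.68, 6.19 and 2.62 FPKM, and Cdh24 had 1.7 ± 0.301 FPKM.

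Some factors of both epithelial and mesenchymal programmes were expressed, as were 71.3% of all genes in the table. Of 11 epithelial factors in the table, 6 were expressed, led by Klf5 (140, 139 and 88.9 FPKM), which acts in proliferating gut and skin epithelium, and by Tfap2a (61.1, 65.1 and 38.3 FPKM). Grhl2, a factor that maintains epithelial junctions, had 1.99, 0.943 and 0.0962 FPKM and was close to 0 in replicate 3. Trp63, the master factor of basal epithelium, had 0.0178 FPKM. Of 8 factors of the epithelial-mesenchymal transition in the table, 6 were expressed. They were led by Zeb2 (86.1, 81.2 and 42.5 FPKM), Snai1 (26.7, 20.8 and 43.7 FPKM) and Zeb1 (23.5, 20.4 and 16.4 FPKM), all repressors of Cdh1.

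Of 14 intestinal transcription factors in the table, 9 were expressed. Cdx2 (chr5:147300805-147307270), the factor that specifies the intestine, had 8.57, 7.41 and 12.8 FPKM from 388, 357 and 475 reads. Klf4, which acts in goblet cells and also in skin and stem cells, had 350, 281 and 283 FPKM. The endodermal factors Gata4 (21.5, 19.3 and 21.6 FPKM) and Foxa2 (16.6, 15.5 and 23.3 FPKM) overlapped in range. Hnf4a, a main factor of enterocytes and hepatocytes, had 1 read in all 3 libraries together. Spdef, a goblet cell factor, had none, and Cdx1 was not in the table.

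Few of the intestinal epithelial markers in the table were expressed. Of 28 listed, 12 were in the table and 4 were expressed: Ephb2, Ephb3, Cdh17 and Tspan8. The other 16 were not in the table, so their level cannot be judged. Ephb2, an ephrin receptor of crypt cells, had 13.6, 12.3 and 16.4 FPKM, and Ephb3, its relative, had 8.83, 5.12 and 14.8 FPKM. Vil1, the brush border protein villin, and Muc2, the goblet cell mucin, had no read in any library. For Vil1 that allows up to 0.243, 0.228 and 0.297 FPKM, and for Muc2 up to 0.117, 0.110 and 0.143 FPKM. The crypt stem cell gene Lgr5 stood at 0.129 FPKM, and Fabp1, a lipid carrier of the gut, was not in the table.

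**Figure D2:**
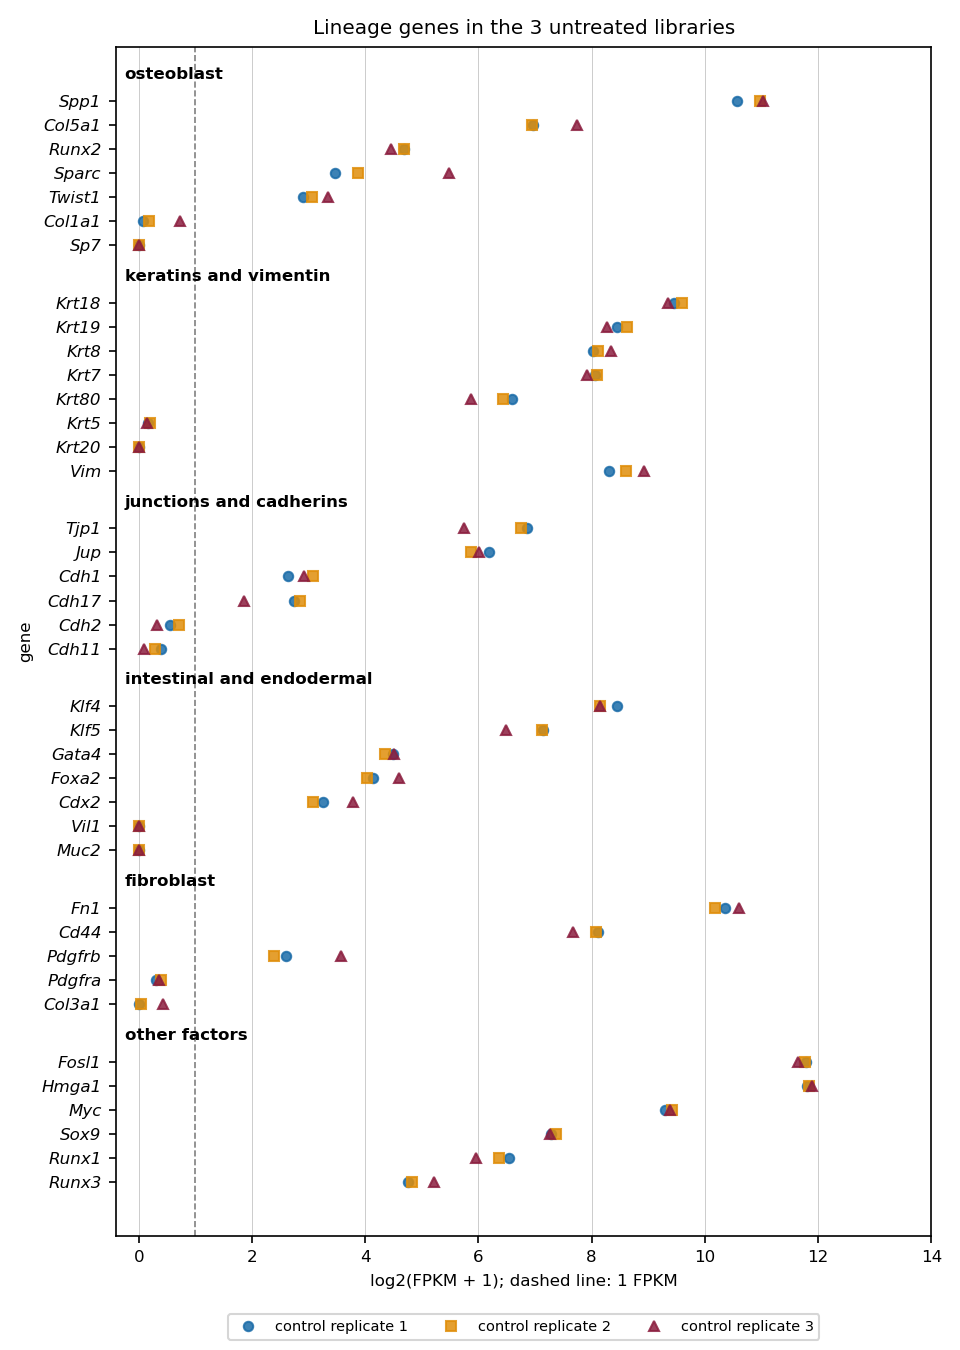
Level of single lineage genes (rows, grouped by lineage) on the log2(FPKM + 1) scale (horizontal axis), with 1 symbol per untreated library and a dashed line at 1 FPKM. Krt18, Vim and Spp1 lie far to the right of the line in all 3 libraries, whereas Col1a1, Sp7, Cdh2, Vil1 and Muc2 lie to its left.

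Factors of several further lineages were found side by side. Sox9, which acts in cartilage and in many epithelia, had 154, 165 and 153 FPKM, and was the only expressed gene of the 6 chondrocyte genes in the table. Col2a1, the main cartilage collagen, had 0.167 FPKM. Of 13 blood factors in the table, 4 were expressed. Runx1 had 92.2, 81.8 and 61.1 FPKM and Runx3 had 25.9, 27.3 and 36.3 FPKM. Runx1 was thus above Runx2 and Runx3 in all 3 libraries, while Runx2 and Runx3 came close to each other without overlapping. Of 10 trophoblast genes in the table, 7 were expressed. They included Ly6e, a receptor of placental fusion that many other cells express, at 729, 942 and 1218 FPKM, Gata3 at 19.5, 18.8 and 13.1 FPKM and Eomes at 2.78, 2.67 and 1.32 FPKM. Krt7 is also a member of that list.

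The HOX genes, which record the position of a cell along the body axis, were expressed from part of the clusters. Of 22 in the table, 10 were expressed, 6 of them from the Hoxa cluster on chromosome 6. Hoxa7 had 36.3, 28.5 and 34.6 FPKM, Hoxc6 had 19.5, 15.7 and 18.3 FPKM, and Hoxa5 had 19.0, 11.2 and 14.7 FPKM. Among neighbours in the Hoxa cluster the level changed sharply, since Hoxa9, the next gene in the table beyond Hoxa7, had 0.0566 FPKM and Hoxa10 had 4.80 ± 1.24 FPKM. Hoxa4 between Hoxa3 and Hoxa5 also stood low, at 0.225 FPKM. Of the Hoxa7 exonic bases 20.4% lie in other genes. No Hoxd gene was in the table.

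Markers of other mesenchymal cells were mixed. Of 14 fibroblast and stromal genes in the table, 5 were expressed: Fn1, Cd44, Ly6a, Twist1 and Pdgfrb. The hyaluronan receptor Cd44 had 277, 269 and 203 FPKM, and the stem cell antigen Ly6a had 135, 193 and 162 FPKM. Pdgfrb, the growth factor receptor of pericytes and fibroblasts, had 5.09, 4.23 and 10.96 FPKM, whereas Pdgfra had 0.237, 0.308 and 0.289 FPKM. Col3a1, the fibrillar collagen of soft tissue, had 0.121 FPKM and the proteoglycan Dcn 0.0720 FPKM.

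Among 9 smooth muscle and myofibroblast genes in the table, 4 were expressed. They included Smtn (221, 227 and 227 FPKM), Cald1 (54.5 ± 5.71 FPKM) and Tpm2 (34.6, 42.9 and 56.3 FPKM). Acta2, the smooth muscle actin of myofibroblasts, had 0, 2 and 9 reads and Cnn1 had none. Skeletal muscle was represented by 2 of 9 genes, Six4 and Tnni2, both under 10 FPKM in every library. Adipocyte genes in the table were limited to the factors Pparg (7.78, 9.48 and 8.36 FPKM) and Cebpa (2.23, 1.72 and 3.44 FPKM), with Fabp4, Cidec and Adipoq below 0.1 FPKM.

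Marker lists of unrelated cell types held few expressed members. Of 9 macrophage and osteoclast genes in the table only Cd68, a lysosomal protein, and Cd14, a lipopolysaccharide receptor, were expressed, at 42.6 ± 12.5 and 17.5 ± 3.6 FPKM. The defining genes Csf1r, Lyz2 and Ctsk stood at 0.0406, 0.0583 and 0.0220 FPKM. Counts were 1 of 6 for endothelial genes (Flt1), 1 of 3 for lymphoid genes (Tcf7), 3 of 5 for neural genes (among them Nes and Tubb3) and 1 of 5 for hepatocyte genes (Apoa2). Each of these named members had a mean below 10 FPKM. None of 4 pluripotency and germline genes was expressed, and Pecam1, Vwf, Gfap and Syp lay below 0.1 FPKM.

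Col18a1, Col5a1 and the type IV chains were the highest collagens, while Col1a1 and Col3a1 lay below 1 FPKM. Of 29 collagen genes in the table, 8 were expressed. Col18a1, the source of endostatin, had 304, 318 and 528 FPKM, and the type IV chains Col4a1 and Col4a2, which form the basement membrane network, had 90.7, 121 and 156 FPKM and 48.0, 57.6 and 80.5 FPKM. Replicate 3 was the highest library for Col18a1, Col5a1, Col4a1 and Col4a2. Col7a1, the anchoring fibril collagen, had 20.3, 19.4 and 19.2 FPKM. Beside Col1a1 and Col3a1, Col6a1 was low, at 0.0994, 0.0373 and 0.364 FPKM. The collagens as a whole made up 0.0915%, 0.0957% and 0.142% of the summed FPKM.

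The laminin chains α5, β1 and γ1 were all expressed, as Lama5 (587, 399 and 501 FPKM), Lamb1 (315, 321 and 327 FPKM) and Lamc1 (56.7, 67.9 and 62.8 FPKM). Lama4, the chain of vessels and fat, had no read. Of 40 glycoprotein and proteoglycan genes in the table, 20 were expressed, led by Spp1 and by Fn1, the fibronectin gene, at 1315, 1154 and 1549 FPKM. Ltbp3, which holds latent TGF-β in the matrix, had 404, 342 and 443 FPKM, and Tinagl1, a basement membrane protein, had 419, 297 and 392 FPKM.

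Of 23 enzymes and chaperones of collagen in the table, 17 were expressed, a share close to the 71.3% of all genes. They were led by P4hb, the protein disulfide isomerase that is also a subunit of prolyl hydroxylase, at 436, 502 and 649 FPKM. Serpinh1, the collagen chaperone HSP47, had 1 read in all 3 libraries together. Lox, the main crosslinking oxidase, had 0.0214 FPKM, whereas its relative Loxl4 had 107, 80.3 and 84.5 FPKM.

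**Figure D3:**
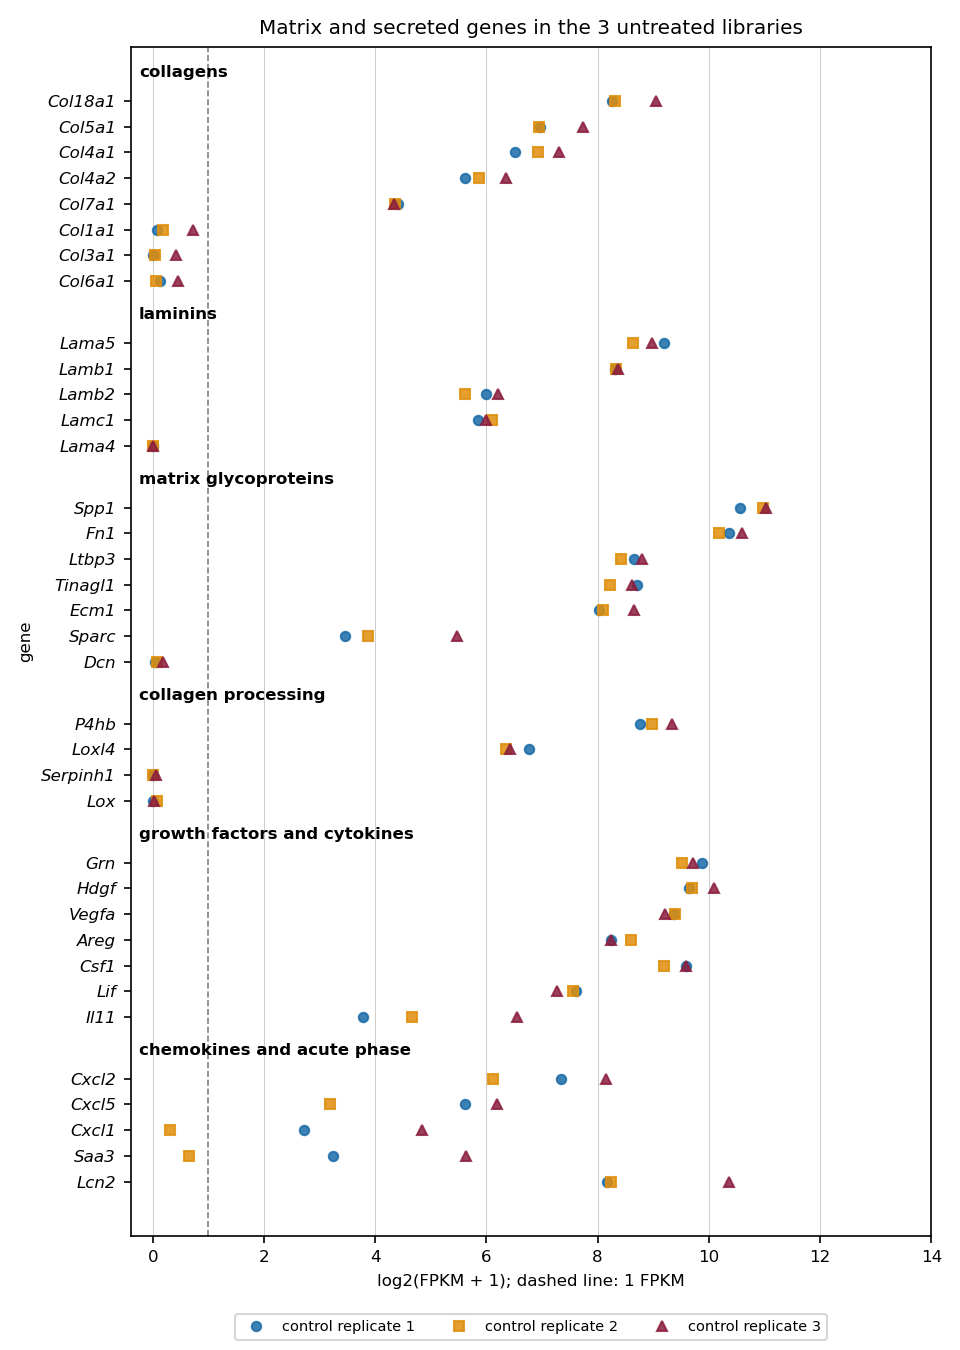
Level of matrix and secreted genes (rows, grouped by kind) on the log2(FPKM + 1) scale (horizontal axis), with 1 symbol per untreated library and a dashed line at 1 FPKM. Basement membrane genes such as Col18a1, Lama5 and Lamb1 lie far above the line and Col1a1, Col3a1, Serpinh1 and Lox below it, and the symbols of Cxcl1, Saa3 and Il11 spread farther apart than those of Lamb1 or Vegfa.

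Integrins, the receptors of this matrix, were expressed from 11 of 18 genes in the table. The laminin receptor chain Itga3 had 324, 278 and 281 FPKM and the common chain Itgb1 209, 202 and 150 FPKM. Itgb4, the chain of epithelial hemidesmosomes, had 171, 120 and 115 FPKM, and Itgb7, better known from lymphocytes, had 346, 234 and 236 FPKM. Of 36 proteases and inhibitors 18 were expressed. Timp2 (420, 410 and 453 FPKM) and Mmp14 (339, 290 and 386 FPKM), which act together on the activation of MMP2, were the highest, while Mmp2 itself had 0.217 FPKM. The urokinase receptor Plaur (260, 374 and 275 FPKM) and urokinase Plau (117, 91.5 and 86.1 FPKM) were both expressed.

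Of 52 growth factor genes 28 were expressed, a smaller share than the 71.3% of all genes. They were led by Hdgf at 795, 827 and 1086 FPKM and Grn, the granulin precursor, at 939, 728 and 842 FPKM. Vegfa, which acts on endothelium, had 664, 666 and 595 FPKM, and Areg, a ligand of the EGF receptor, had 302, 388 and 303 FPKM. Of 31 interleukin and colony stimulating factor genes 12 were expressed, also a smaller share, led by Csf1, which supports macrophages and osteoclasts, at 772, 586 and 765 FPKM. Lif, a cytokine of the interleukin-6 family, had 193, 187 and 153 FPKM. Il6 stood at 0.431, 0.368 and 0.862 FPKM and Tnf at 0.132 FPKM.

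Of 15 Wnt ligands and secreted inhibitors 5 were expressed, with Wnt7b (127, 140 and 233 FPKM) and Wnt10a (120, 138 and 174 FPKM) far above the next, Wnt7a (13.0, 14.3 and 5.01 FPKM). Sost, the Wnt inhibitor of osteocytes, had 0.0439 FPKM. Further secreted proteins at high levels were Lgals3, galectin-3, at 1642, 1407 and 2262 FPKM, and Mif, a cytokine-like protein, at 911, 909 and 1260 FPKM. Of 40 such genes in the table, 31 were expressed.

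Chemokines were expressed unevenly between libraries. Of 22 in the table, 13 had a mean of 1 FPKM or more. Cxcl2, which attracts neutrophils, had 160, 68.5 and 282 FPKM, Cxcl5 had 47.9, 8.05 and 71.9 FPKM and Cxcl3 had 28.2, 7.67 and 77.7 FPKM. All 3 were lowest in replicate 2 and highest in replicate 3. Ccl5, which attracts T cells, was more even at 40.1, 30.5 and 36.3 FPKM. Summed over the family, chemokines made up 0.0602%, 0.0256% and 0.0866% of the FPKM of replicates 1, 2 and 3.

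The spread between the 3 libraries was several times what counting of reads would give. Among 8238 genes with a mean of at least 5 FPKM the median CV was 15.9% (quartiles 9.49% and 24.8%), against 3.15% expected from read counts alone. By level, the median CV fell from 19.2% in genes of 5 to 20 FPKM to 13.0% in genes of 100 to 1000 FPKM, and was 15.4% in the 80 genes above 1000 FPKM. A range of at least 2-fold was found for 822 genes (9.98%).

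**Figure D4:**
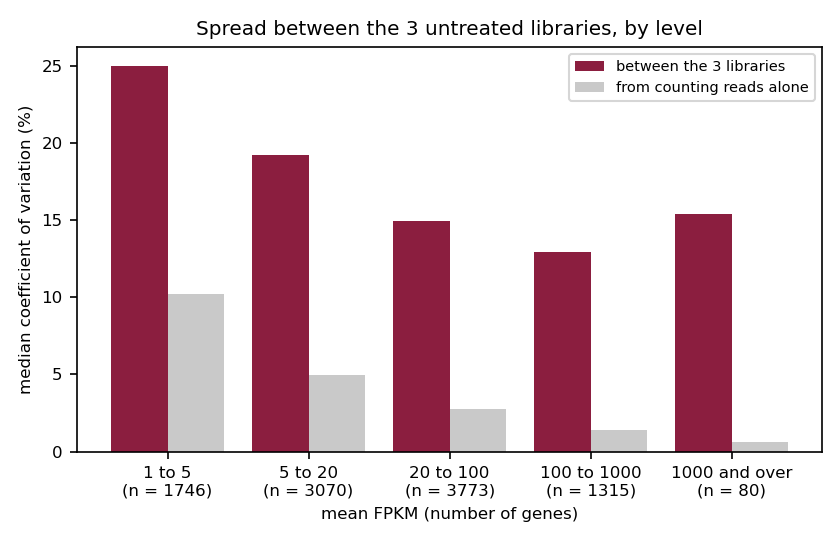
Median coefficient of variation in percent (vertical axis) of genes grouped by mean FPKM (horizontal axis), between the 3 untreated libraries and as counting of reads alone would give. The bars between libraries stand at 24.95%, 19.2%, 14.9%, 13.0% and 15.4% from the lowest to the highest level, above the counting bars in each group.

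Replicate 3 stood apart. It was the library farthest from the median in 698 of the 822 genes with a 2-fold range (84.9%), lower in 456 of them and higher in 242. Over all 8238 genes it was the farthest library in 58.7%. The median absolute difference between libraries on the log2(FPKM + 1) scale was 0.15 between replicates 1 and 2, 0.33 between 1 and 3 and 0.30 between 2 and 3. Over these 8238 genes Pearson's r of the log values was 0.987 between replicates 1 and 2, 0.950 between 1 and 3 and 0.958 between 2 and 3. The genes share each library, so these are descriptions of the libraries.

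The difference of replicate 3 moved with the base composition and the length of the transcript. On the log2(FPKM + 1) scale, the median of replicate 3 minus the mean of replicates 1 and 2 was −0.42 in the lowest and 0.34 in the highest of 5 groups of equal size ordered by GC content. Ordered by length, it was 0.25 in the shortest and −0.36 in the longest group. Both properties were taken from the longest coding transcript of the gene. Over 8223 genes Spearman's rho of that difference was 0.594 with GC content and −0.426 with length. Between replicates 1 and 2 the same rho was −0.0806 with GC content and 0.283 with length. The part of base composition and length in any single gene's spread was not tested.

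**Figure D5:**
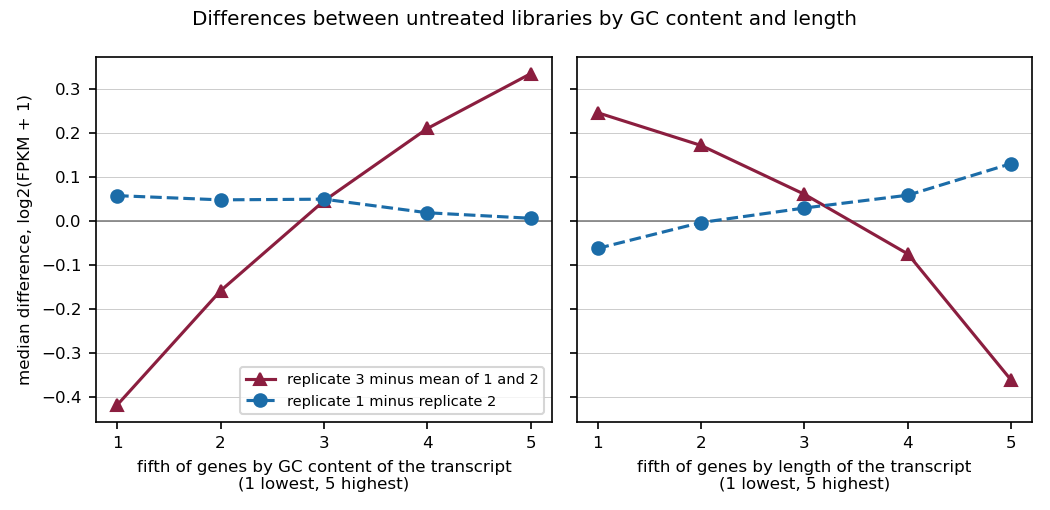
Median difference on the log2(FPKM + 1) scale (vertical axis) in 5 groups of genes by GC content (left) and by length of the transcript (right), for replicate 3 minus the mean of replicates 1 and 2 and for replicate 1 minus replicate 2. For replicate 3 the medians go from −0.42 to 0.34 with rising GC content and from 0.25 to −0.36 with rising length, while those between replicates 1 and 2 stay between −0.06 and 0.13.

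Acute-phase, chemokine and interferon-induced genes stood among the widest ranges between libraries. Saa3, an acute-phase protein, had 8.396, 0.563 and 48.7 FPKM. Its range of 4.99 on the log2(FPKM + 1) scale was the widest of the 8238 genes after predicted genes were left out. Cxcl1, a neutrophil chemokine, had 5.56, 0.233 and 27.6 FPKM. Of the 12 widest ranges, those of Saa3, Cxcl1, Cxcl3, Cxcl5, Gbp2, Mmp13 and Icam1 had replicate 2 as the farthest and lowest library. Gbp2, an interferon-induced GTPase, had 8.72, 1.03 and 13.3 FPKM, and Icam1, a leukocyte adhesion receptor, had 5.90, 0.911 and 10.2 FPKM. The outlying library of these genes was thus replicate 2 on the log2(FPKM + 1) scale. Replicate 3 was still the highest library in all of them but Mmp13. On the FPKM scale replicate 3 lay farther from the median than replicate 2 for Saa3, Cxcl1 and Cxcl3.

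Others of the 12 were set apart by replicate 3 or by replicate 1. Txnip, the thioredoxin-binding protein that responds to glucose, had 1.24, 0.364 and 19.4 FPKM, and Il11, a cytokine known to act on bone and stroma, had 12.7, 24.3 and 93.0 FPKM. The ATP receptor P2rx7 and Prl2c2 (proliferin) were lowest in replicate 3, at 1.76 and 6.62 FPKM. Srp54b, a subunit of the signal recognition particle, was highest in replicate 1, but 89.3% of its 50-base words are shared with other genes, as are 83.3% of those of Prl2c2. Lcn2, the iron-binding acute-phase protein lipocalin-2, had 287, 301 and 1308 FPKM.

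Among genes above 100 FPKM, Cops7a and Maea had the smallest CVs. Cops7a, a subunit of the COP9 signalosome, had 350, 349 and 348 FPKM, a CV of 0.339%. Maea, a subunit of a ubiquitin ligase, had 161, 161 and 160 FPKM, and Vapa, a protein of the endoplasmic reticulum membrane, had 181, 183 and 181 FPKM. The others of the 6 with the smallest CV were Fam107b, Zcrb1 and Bud23. All 6 CVs lay below 1.43%, the median CV from counting reads in genes of 100 to 1000 FPKM. With 3 libraries the smallest of many CVs can fall this low, and whether these genes are steadier than others was not tested. Of the lineage markers, Fosl1, Krt18 and Runx2 had CVs of 5.61%, 8.62% and 9.37%, below the median of 15.9%, and Krt8 had 11.7%. Spp1 (16.5%), Vim (21.04%) and Cdx2 (29.7%) lay above it.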

How the data were processed

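RNA of 3 untreated and 3 sulfasalazine-treated samples of cells labelled MC3T3-E1 was sequenced as 150-bp paired-end reads, all under 1 batch label. Per the labels' protocols, the RNA kit is one sold for plants, and rRNA was depleted with a kit made for bacterial RNA. Per the submitters' processing notes, the tools were HTSeq 0.13.5, HISAT2 2.2.1, fastp 0.23.0 and edgeR, and the build was mm39. The sources used here do not say what each tool did. FPKM per gene and library were computed by the authors, and their deposited table holds a size-adjusted signal per library, which was used only as an alternative for the spread and to recover reads. Columns of no sample of the series numbered 0.

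Of the 13994 genes that matched GENCODE M21, 13861 had that release's start and end, so coordinates are on GRCm38 although the notes name mm39. Of the matched genes 99.7% are protein coding. What 1 read is worth was found for each gene from its 6 FPKM values, and this gave whole reads within 1e-05 reads for 100% of the control values above 0. Treated values served only for that step. The limit of 3 reads for a count of 0 was a fixed setting. The recovered depth of 15980944 to 20828706 reads bears on what 3 reads are worth in FPKM. Such limits and the counting CV cover counting error only. Chi-square per gene between control libraries was 29.8, 93.2 and 73.8, so the 3 were kept as separate samples.

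Means and SDs over the 3 libraries were taken on FPKM and differences on log2(FPKM + 1). Genes were named by these rules: the 25 highest, the 15 highest that are neither mitochondrial, ribosomal protein nor predicted genes, the 20 highest transcription factors, up to 6 expressed and 4 lower members of each of 48 lists, a set of lineage markers, the 12 widest ranges above 5 FPKM and the 6 smallest CVs above 100 FPKM. Chosen after their values were seen were Cldn4, Cnn1, Col3a1, Col6a1, Csf1r, Ctsk, Dcn, Dsp, Fabp1, Fos, Fosb, Hoxa3, Hoxa4, Hoxa9, Krt14, Krt20, Lama4, Lcn2, Lyz2, Mmp2, Muc2, Pecam1, Sost, Spdef, Tnf and Vil1. Predicted genes were left out of the 12 widest ranges too. Ribosomal protein genes were those with such a gene symbol, so Fau was not among them. Members and lists were chosen with earlier results of these data known. The scripts for reads and spread were tested on simulated data. Python 3.11.15 was used, with numpy 2.4.6, pandas 2.3.3, scipy 1.17.1 and matplotlib 3.10.9. A few results are not reported here.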

Additional observations from a re-analysis of the deposited data

How the results depend on the processing

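Of 111 alternative values for 14 results, 101 stayed within 1.5 times the main count or within 1 SD. Settings were the rescaling to a common sum, median-of-ratios scaling, the lowest library in place of the mean, other thresholds, filters and pseudocounts, the size-adjusted signal, and each library left out. With 5 FPKM as the threshold 3 of the osteoblast markers were expressed in place of 5, and 2 of the intestinal epithelial markers in place of 4. Leaving out the mitochondrial and ribosomal protein genes, classed by gene symbol, kept 15 of the 25 highest genes, by construction. The spread depended on replicate 3: without replicate 3 the median CV was 7.83%, and with each library left out in turn it ranged from 7.83% to 17.1%. Genes with a 2-fold range numbered 38 without replicate 3 and 663 without replicate 2. With replicate 1 left out they numbered 482. They numbered 1316 with a filter of 1 FPKM, 4069 with no filter and 340 with a filter of 20 FPKM. With no filter replicate 3 was the farthest library in 49.1% of them; the cause was not tested.

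The levels of 358 named genes were recomputed under 5 settings. Under median-of-ratios scaling 5 of them moved by more than 1 SD. Rescaling to a common sum changes the unit of every gene by about the same factor, and beyond that factor none of the 358 moved by more than 1 SD. Leaving out 1 of 3 libraries cannot move a mean by 1 SD, by construction. The signal has no gene length in the file, so it was not run for levels, and the library farthest from the median could not be taken from 2 libraries. No paired analysis was possible because the results come from no test. Depth limits what can be said of genes near 0: 3 reads, the limit for a gene with none, corresponded to 0.208 to 0.271 FPKM for Sp7. How genes were filtered before the table was made was not stated.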

Other observations

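Gene groups outside the main description were looked at with lists chosen after the data were seen. Their counts can be set against the 71.3% of all genes in the table that were expressed. Of 24 growth factor receptors in the table, 17 were expressed. Epha2, an ephrin receptor of epithelial cells, had 936, 813 and 699 FPKM, and Axl, the receptor of Gas6, had 768, 679 and 681 FPKM, far above Egfr at 51.2, 39.2 and 54.9 FPKM. Fgfr1 had 25.1, 25.8 and 31.0 FPKM. Lifr, the receptor chain for Lif, had no read in any library although Lif and the shared chain Il6st (112, 91.8 and 57.1 FPKM) were expressed. Of 9 TNF receptors 8 were expressed. Behind Tnfrsf12a came Ltbr at 300, 281 and 326 FPKM and Tnfrsf1a, the main receptor of TNF, at 213, 199 and 269 FPKM, with Tnfrsf1b at 57.0, 51.1 and 77.7 FPKM.

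The class I antigen genes B2m (1236, 1010 and 1329 FPKM), H2-D1 and H2-K1 were high, while the peptide transporter Tap1 had 1.46, 0.536 and 2.69 FPKM and the immunoproteasome genes Psmb8 and Psmb9 lay below 0.1 FPKM. Of 12 interferon response genes 11 were expressed, only 3 of them at 10 FPKM or more. Irf1 had 64.3, 31.6 and 91.4 FPKM, lowest in replicate 2 and highest in replicate 3. All 12 proliferation genes were expressed. Mki67 had 11.6, 15.1 and 4.29 FPKM and Ccnd1 653, 428 and 634 FPKM. Trp53 had 115, 110 and 141 FPKM and its target Cdkn1a 1400, 817 and 771 FPKM, highest in replicate 1. Mdm2, another target, had 516, 306 and 202 FPKM, also highest in replicate 1. Tert, the catalytic subunit of telomerase, had 0.207, 0.195 and 0.225 FPKM, and the inhibitors Cdkn2a and Cdkn2b were not in the table.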
